A study of Caenorhabditis elegans with 4 samples.

Results

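MRG-1 peaks on chromosome V of adult *Caenorhabditis elegans* are described here from ChIP-seq, in which DNA bound by a protein is recovered with an antibody and sequenced. The peaks were taken as every line for chromosome V in 3 peak lists in WormBase WS220 coordinates. They number 1622 of 12447 peaks in the list deposited for the whole series, 510 of 3283 in that of ChIP replicate 1 and 474 of 3184 in that of ChIP replicate 2. Both ChIP and input animals were *fem-2(b245)* mutants, whose allele acts by temperature in a gene of the male sex-determination pathway. They were kept at 20 °C and labelled as young adult hermaphrodites with a germ line, although the growth protocol speaks of gravid adults. The 2 ChIP samples were made with a polyclonal rabbit antibody to MRG-1 that had been affinity purified, and 2 input samples of the same strain went with them. Input values were not analysed here, and the labels name no strain without MRG-1 to set beside the peaks. Chromatin came from whole worms, so germ line and body tissues were mixed.

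MRG-1 is a chromodomain protein of the MRG15 family, whose members bind chromatin marked by methylation that is laid down over transcribed genes, and the worm needs it for its primordial germ cells. Chromosomes of *C. elegans* have no single centromere. Each autosome has a central region with little recombination, where many genes used in all cells or in the germ line lie, and a pair of arms with more recombination and more repeats. Chromosome V is known for large families of chemoreceptor genes, many of them in its arms.

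The 2 libraries were not alike, which touches every value below. Replicate 1 covered 1.62-fold more of chromosome V than replicate 2, and its coverage was higher on each of the 5 autosomes, by 1.48-fold to 1.66-fold. Read counts are not in the lists, so the depth behind a peak is unknown, and a base without a peak is only one that was not called. Whether each replicate had its own culture is not stated, so their spread could be purely technical. With 2 replicates of a single group, an exact sign-flip test over replicates cannot go below p = 0.5. Differences are therefore given with the value of each list and with no p-value.

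Chromosome V carried fewer MRG-1 peaks and a smaller share of covered bases than any other autosome in all 3 lists. Peaks covered 10.4% of its 20.9 Mb in replicate 1 and 6.42% in replicate 2, where the lowest of the other 4 autosomes had 16.1% and 10.1%. The series list covered 8.93% of V, against 14.3% on the next lowest autosome. V averaged 8.41% ± 2.81 covered bases and chromosomes I to IV as a whole 17.0% ± 5.43 (SD, n = 2 each). The large SDs come with the difference between the libraries, which moved both values together. The ratio of V to chromosomes I to IV was 0.499 in replicate 1, 0.488 in replicate 2 and 0.472 in the series list, so V was covered to about the same fraction of the other autosomes in each list. In numbers, replicate 1 had 24.4 peaks per Mb of V and replicate 2 had 22.7, against 41.9 and 43.6 on chromosomes I to IV.

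The peaks that V did have were slightly narrower on average than those of other autosomes in both replicates, and their median scores were no lower. Their mean width was 4268 bases in replicate 1 and 2835 bases in replicate 2, where the other autosomes had 4881 to 5043 and 2961 to 3116 bases. Their median width was 3202.5 bases in replicate 1 and 2199 bases in replicate 2, against 3310 and 2187 bases on chromosomes I to IV. Peaks of at least 5 kb were less frequent than on any other autosome in both replicates, with 30.6% on V and 36.04% on chromosomes I to IV in replicate 1, and 14.1% and 16.7% in replicate 2. In the series list V peaks were not narrower, with a mean of 1152 and a median of 481 bases, against 1128 and 452 on chromosomes I to IV. There 4.07% of the V peaks were at least 5 kb wide, against 4.53% on chromosomes I to IV and 3.85% on chromosome I alone. The median score of V peaks was 1000.04 in replicate 1, above the medians of chromosomes I to IV, which ran from 534 to 866. In replicate 2 it was 377 on V, where the other autosomes ran from 290 to 373. Scores are as the authors deposited them for each peak, on a scale that the headers leave open, and serve here only to rank peaks within a list. Of the better-scoring 50% of all peaks of a list, V held 296 of its 510 peaks in replicate 1 and 261 of its 474 in replicate 2. In the series list the medians were 7.39 on V and 7.37 on chromosomes I to IV, so the order seen in the replicates was hardly present there.

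**Figure D1:**
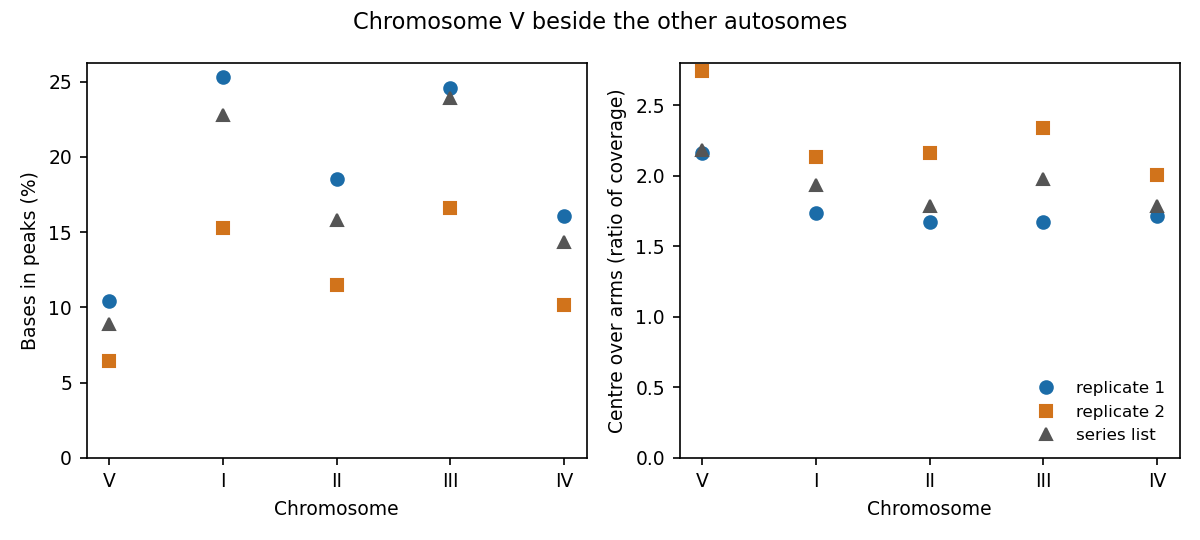
Bases inside MRG-1 peaks (left, % of each autosome) and the ratio of coverage in the central 50% to that in the arms (right), for chromosome V and chromosomes I to IV, with 1 point per peak list. V has the lowest coverage in each list, 10.4%, 6.42% and 8.93%, and the highest ratio in each, 2.16, 2.74 and 2.18.

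Along the chromosome, the centre was covered more than either arm in every list. The centre is taken here as the central 50% of the span (bases 5231044 to 15693129), and each arm as the 25% on its side. Replicate 1 covered 14.2% of the centre, 7.22% of the left arm and 5.94% of the right arm. Replicate 2 covered 9.42%, 4.04% and 2.82% of the same parts, and the series list 12.2%, 5.83% and 5.38%. Averaged over the replicates, the centre had 11.8% ± 3.40, the left arm 5.63% ± 2.25 and the right arm 4.38% ± 2.21 (SD, n = 2 each). Within a list the centre exceeded the left arm 1.97-fold and 2.33-fold, and the right arm 2.39-fold and 3.34-fold, in replicates 1 and 2. Both arms together gave a ratio of 2.45 ± 0.413 (SD, n = 2) on V and 1.93 ± 0.326 on chromosomes I to IV, and V was above each of those 4 autosomes in each list. The left arm was covered more than the right in both replicates, 1.22-fold and 1.43-fold, or by 1.28 percentage points in replicate 1 and 1.22 in replicate 2. In the series list the ratio was 1.08 and the difference 0.454 points. There the left arm had fewer peaks per Mb than the right, with a ratio of 0.938. Without its first 200 kb, the left arm was covered to 6.49% in replicate 1, 3.81% in replicate 2 and 5.30% in the series list. The last of these lies below the 5.38% of the right arm.

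**Figure D2:**
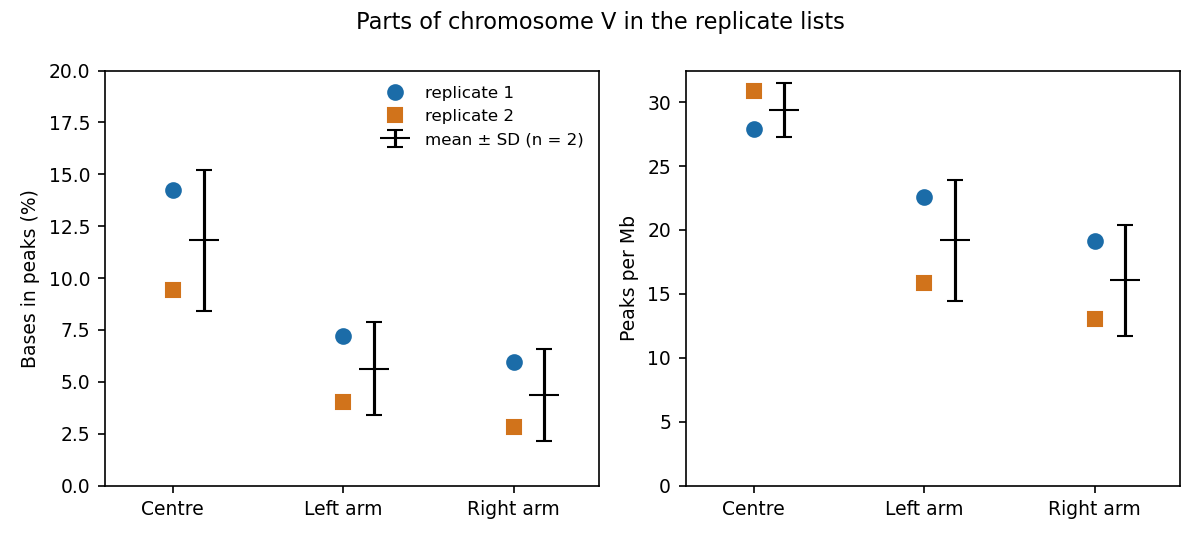
Bases in peaks (left, %) and peaks per Mb (right) in the centre, left arm and right arm of chromosome V, with 1 point per replicate and the mean with its SD beside them. In each replicate the centre lies above both arms, with 14.2% and 9.42% of its bases in peaks.

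Part of this difference lay in the number of peaks and part in their width. The centre held 292 peaks in replicate 1 and 323 in replicate 2, or 27.9 and 30.9 per Mb. The left arm held 118 and 83 peaks, or 22.6 and 15.9 per Mb, and the right arm 100 and 68, or 19.1 and 13.0 per Mb. Replicate 2 thus had more peaks than replicate 1 in the centre and fewer in both arms. Centre peaks were also wider, with a median of 4146 bases in replicate 1, against 2113.5 bases in the left arm and 2118.5 bases in the right. In replicate 2 the medians were 2492 bases in the centre, 1973 bases in the left arm and 1740 bases in the right. Of the replicate 1 peaks, 116 of the 292 in the centre were at least 5 kb wide, as were 21 of 118 in the left arm and 19 of 100 in the right. Replicate 2 had 54 such peaks in the centre, 10 in the left arm and 3 in the right.

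Counted in 1-Mb windows, the more covered middle of V reached further to the left than the central 50% and less far to the right. All 11 windows between 4 and 15 Mb were covered to at least 11.3% in replicate 1, at least 7.31% in replicate 2 and at least 9.73% in the series list. The other 10 windows reached at most 8.26% in replicate 1, 5.82% in replicate 2 and 8.08% in the series list. The windows inside and outside these limits did not overlap in any list, but the limits were placed after the values were seen. The highest 1-Mb window ran from base 10000001 to 11000000 in all 3 lists, with 18.3%, 13.1% and 16.0%. The lowest lay from base 3000001 to 4000000 in replicate 1, with 3.25%, and in the series list, with 2.66%. In replicate 2 the lowest lay from base 17000001 to 18000000, with 1.51%. The 200-kb profiles of both libraries ran in parallel, with Pearson's r at 0.924 and Spearman's rho at 0.933 over 104 full windows. These windows share the antibody and strain, and neighbours are not independent. Replicate 1 was higher in 95 of them and replicate 2 in 4, with both at 0 in the remaining 5.

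**Figure D3:**
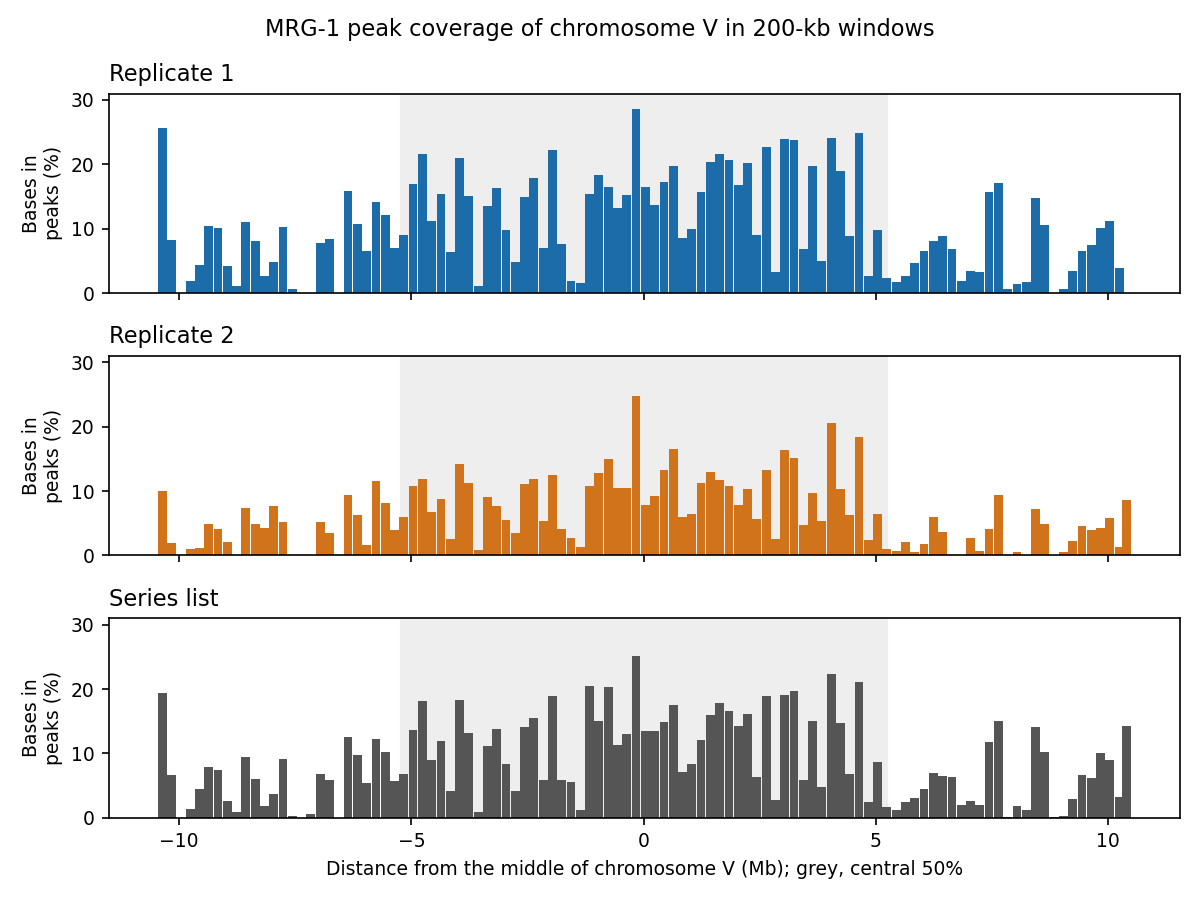
Bases inside MRG-1 peaks (%) in 200-kb windows along chromosome V, plotted against the distance from its middle, for both replicates and the series list. The last window on the right is shorter than 200 kb. The highest window sits near the middle in each list, with 28.6%, 24.8% and 25.1%, and the first window on the left reaches 25.7% in replicate 1.

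The left end of V was covered more than the rest of its arm, but the covered stretch did not start at the tip itself. The first 200 kb held 14 peaks in replicate 1 and 9 in replicate 2, which covered 25.7% and 10.01% of it, against 6.49% and 3.81% of the rest of the left arm. The ratio was 3.95 in replicate 1 and 2.63 in replicate 2, a mean of 3.29 ± 0.936 (SD, n = 2), and 3.66 in the series list. The same ratio on chromosomes I to IV lay between 0.645 and 2.32 in replicate 1, and in replicate 2 between 0.485 and 2.57. As a share of bases, the first 200 kb of chromosome I were covered more than those of V in each list. They had 27.4% in replicate 1, 11.6% in replicate 2 and 21.2% in the series list, where V had 19.4%. Chromosome II had 10.1% in replicate 2. Nearly all of this coverage lay between 100 and 200 kb from the end, where 47.2% of the bases were in replicate 1 peaks, 17.4% in replicate 2 peaks and 35.2% in series peaks. In the first 100 kb each replicate had a single peak, at bases 5399 to 9487 in replicate 1 and 6583 to 9209 in replicate 2. Its score was 3100 in replicate 1, a value shared by 118 peaks of V, and 1366 in replicate 2. With the tip set at 100 kb the ratio turned to 0.603, and at 500 kb it was 1.64, so the covered tip is a patch that starts 102 kb from the end. At these settings chromosome II had higher ratios than V. They were 3.19 in replicate 1 and 3.66 in replicate 2 at 100 kb, and 3.08 and 3.37 at 500 kb.

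That patch had 2 dense parts in replicate 1, with a single peak (156214 to 158342) between them that replicate 2 shared. The first ran over 29.1 kb, from base 102395 to 131542, where 5 peaks covered 95.8% of the bases. Replicate 2 had 3 peaks there, which covered 36.4%, and the series list 20 peaks, which covered 70.7%. Its widest peak, 11347 bases in replicate 1 (120196 to 131542), contained a 6172-base peak of replicate 2 (123586 to 129757) that scored 3100. The 3 peaks between bases 108966 and 119606 in replicate 1 met no peak of replicate 2. The second part held 7 peaks of replicate 1 from base 171140 to 199952, with scores between 54.28 and 1459.83. Replicate 2 had 4 peaks there, with scores between 53.98 and 313.12. All 9 tip peaks of replicate 2 met a replicate 1 peak, and 7 of the 14 of replicate 1 met a replicate 2 peak.

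The right end looked different in the 2 libraries. Replicate 1 had no peak beyond base 20744815, whereas replicate 2 had a group of 5 peaks from base 20831777 to 20852068, which covered 10.7 kb. The strongest of them (20843727 to 20848017) scored 1810.88, at percentile 87.7 of all replicate 2 scores. The series list had 17 peaks beyond the last replicate 1 peak, covering 17.7 kb, with a top score of 44.60. This group is thus present in the replicate 2 and series lists and absent from replicate 1, although replicate 1 covered more of the chromosome as a whole. Any pooling behind the series list is not stated, so that list may not be independent of replicate 2.

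Long stretches without a peak took up much of V. Stretches of at least 100 kb numbered 52 in replicate 1, 46 in replicate 2 and 49 in the series list, and they made up 43.5%, 47.2% and 36.6% of the chromosome. Among the other autosomes this share was at most 26.9% in replicate 1, 32.8% in replicate 2 and 21.7% in the series list, each time on chromosome IV. The stretches were largely the same in both replicates, as 8.74 Mb were in such a stretch in both lists, which is 96.03% of their length in replicate 1 and 88.5% in replicate 2. By part, each stretch was counted wholly where its midpoint lay. Such stretches took up 28.3% of the centre, 49.8% of the left arm and 67.7% of the right arm in replicate 1. In replicate 2 the shares were 30.3% of the centre, 58.7% of the left arm and 69.6% of the right arm. The right arm held 21 of the 52 stretches in replicate 1, more than the 12 of the equally long left arm, but the longest lay on the left.

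In both replicates the longest peak-free stretch of V lay in the left arm. It spanned 682 kb in replicate 1 (2877123 to 3558686) and 881 kb in replicate 2 (2698009 to 3578691). The longer stretch of replicate 2 was met by 8 replicate 1 peaks, with 10343 bases inside it. It was also met by 16 series peaks, with 8442 bases inside it and a top score of 45.29. Peaks that only reach over its edges are included in these counts. Within the replicate 1 stretch the series list had 5 peaks of 1499 bases in all, the first at base 3204939 and none with a score above 4.71, so that 328 kb of it (2877123 to 3204938) were free in all 3 lists. A further 4 stretches of over 300 kb were empty, or nearly so, in each list. The left arm held those from 361986 to 687437, over 325 kb, and from 3760714 to 4063931, over 303 kb, as replicate 1 gives them. The right arm held those from 16027893 to 16357054, over 329 kb, and from 19195529 to 19568687, over 373 kb. No replicate 2 peak lay in any of the 4, and the series list had 0 peaks in that at 3760714 and in that at 16027893, 1 peak in that at 361986 and 2 peaks in that at 19195529. In the series list the stretch in the far right arm was the longest, at 369 kb (19200123 to 19568986). Only in replicate 2 was the longest stretch of V longer than that of chromosome IV. The longest of chromosome IV spanned 753 kb in replicate 1, 467 kb in replicate 2 and 754 kb in the series list. Free in all 3 lists, chromosome IV had up to 457 kb and V up to 369 kb.

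Free in all 3 lists at once were 47 stretches of at least 100 kb, with 7.40 Mb or 35.4% of V. Of these, 8 were at least 200 kb long. Besides the 5 in the arms, the centre had 3, at bases 7241758 to 7465645, 8961717 to 9175006 and 15191504 to 15391658, over 224, 213 and 200.2 kb. On chromosomes I to IV the number of stretches of at least 200 kb free in all 3 lists ran from 0 on chromosome III to 5 on chromosome IV. Some stretches were empty in replicate 2 only. The clearest was 548 kb long in the right arm (16966076 to 17514286). It was met by 6 replicate 1 peaks, the first of which reaches over its left edge, with 18780 bases inside it and scores up to 1113.83. The series list had 11 peaks with 17501 bases there. The next longest of replicate 2, besides that ending at 773004, also lay in the right arm, from 18137687 to 18533647 over 396 kb, reached by 3 replicate 1 peaks with 1476 bases, and from 19191734 to 19568699 over 377 kb, which contains the replicate 1 stretch at 19195529.

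Gaps between neighbouring peaks on V spread over a wide range, from tight runs to the stretches above. The median gap was 16.2 kb (16242 bases) in replicate 1 and 18.4 kb (18424 bases) in replicate 2, against 6106 and 5784 bases on chromosomes I to IV. The medians of the single chromosomes I to IV lay between 4234 and 9284 bases in replicate 1, and in replicate 2 between 4092 and 8434 bases, all below V. At the short end, 100 of 509 gaps in replicate 1 and 111 of 473 in replicate 2 were at most 1 kb long, which is 19.6% and 23.5%, against 25.2% and 28.5% on chromosomes I to IV. At the long end, 10.02% and 9.73% of the gaps were at least 100 kb long, against 2.99% and 3.43%. At a limit of 50 kb, 32 peaks of replicate 1 (6.27%) and 29 of replicate 2 (6.12%) had no neighbour on either side. This share is not set beside the other autosomes. At a limit of 5 kb, 240 peaks of replicate 1 and 208 of replicate 2 had no neighbour.

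The wide spacing did not follow the parts of the chromosome in the same way in both lists. In replicate 1 the median gap was 18.6 kb (18568 bases) in the centre, against 8761 bases in the left arm and 13755 bases in the right, so the less covered arms had the shorter typical gap. In replicate 2 it was 15809 bases in the centre, against 19869.5 bases in the left arm and 36725 bases in the right. The series list, with its many narrow peaks, had a median gap of 555 bases on V and 404 bases on chromosomes I to IV.

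**Figure D4:**
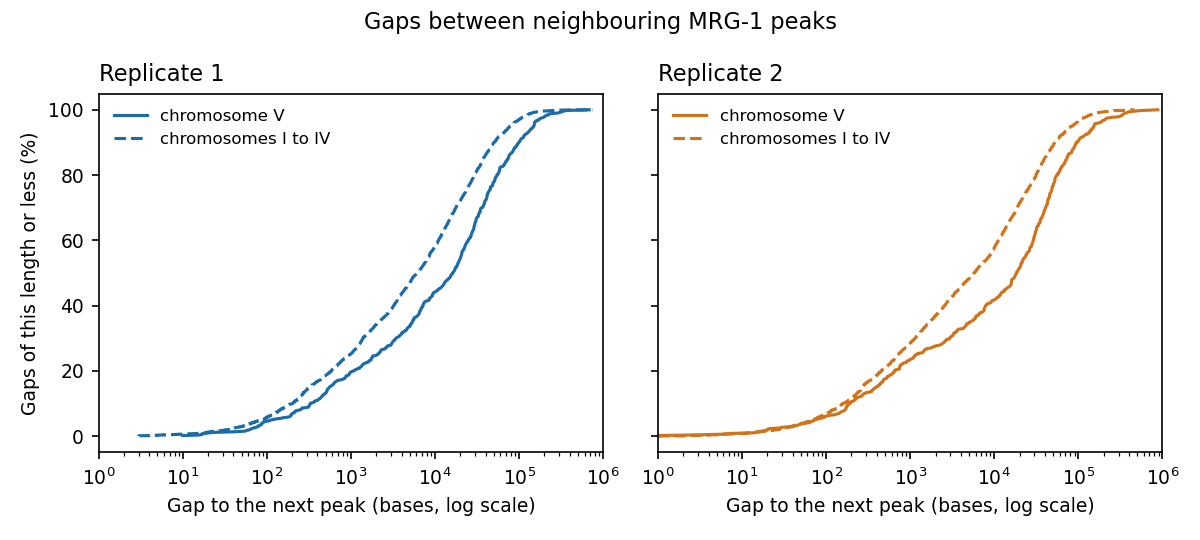
Cumulative share of gaps between neighbouring MRG-1 peaks (%) against their length in bases on a log axis, for chromosome V (solid line) and chromosomes I to IV (dashed line), in each replicate. The V curve lies to the right of the other for all but the shortest gaps, with medians of 16242 and 18424 bases on V, against 6106 and 5784 bases.

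In each replicate list somewhat over 50% of the V peaks stood in clusters, defined as runs of peaks with gaps of at most 5 kb. Replicate 1 had 100 clusters with 270 of its 510 peaks (52.9%) and replicate 2 had 103 with 266 of its 474 peaks (56.1%), against 70.2% and 72.01% of the peaks of chromosomes I to IV. In the series list it was 92.7% of the V peaks, in 274 clusters, against 96.9% on chromosomes I to IV. Most clusters of the replicates were pairs, 57 in replicate 1 and 67 in replicate 2, and the fullest held 7 and 6 peaks. In the series list 74 of the clusters were pairs and the fullest held 31 peaks. Clusters numbered 5.07 (replicate 1) and 6.88 (replicate 2) per Mb of the centre, 5.16 and 4.21 of the left arm, and 3.82 and 1.72 of the right arm. They were thus about as dense in the left arm as in the centre in replicate 1 and less so in replicate 2. Peaks in clusters were narrower than single peaks, with medians of 2609 and 4070.5 bases in replicate 1 and 2043 and 2474.5 bases in replicate 2.

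The 5 longest clusters of replicate 1 lay in the centre, except the one at the left tip described above. They ran from base 7205716 to 7241757 (36.04 kb, 4 peaks), 12031495 to 12066209 (34.7 kb, 5 peaks), 13650235 to 13681783 (31.5 kb, 3 peaks) and 15055859 to 15087312 (31.5 kb, 4 peaks), with 76.8% to 90.7% of their bases in peaks. Replicate 2 peaks covered 42.4%, 33.4%, 61.2% and 55.5% of them. The longest cluster of replicate 2 lay inside that at 13650235, from base 13652848 to 13680020, with 4 peaks over 27.2 kb. Its next longest was the group at the right end with no replicate 1 peak. The others were at bases 13550350 to 13570602, 7220040 to 7238701 and 9536512 to 9553821, and each was met by replicate 1. The longest clusters of the series list, added after their values were seen, lay elsewhere, with the first 3 in the arms. These ran from base 18071405 to 18115156 in the right arm (43.8 kb, 31 peaks), and in the left arm from 166429 to 202742 (36.3 kb, 18 peaks) and from 4164878 to 4200955 (36.1 kb, 25 peaks). The cluster at 7205716 borders directly on the longest free stretch of the centre, which starts at base 7241758.

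The widest peaks also lay in the centre. In replicate 1 they were 21496 bases (7217495 to 7238990), 19823 bases (11109764 to 11129586), 19642 bases (9536460 to 9556101), 17287 bases (12590867 to 12608153) and 16598 bases (9634725 to 9651322). Replicate 2 had 5, 4, 3, 3 and 3 peaks in them and covered 71.04%, 82.6%, 85.8%, 45.6% and 56.9% of their bases. The widest peak of replicate 1 had a score of 284, at percentile 37.3 of its list, while the peak at 9536460 scored 3100. In replicate 2 the widest were 14424 bases (9536512 to 9550935), 13010 bases (14412542 to 14425551), 10625 bases (14347214 to 14357838), 9647 bases (1866817 to 1876463) and 9309 bases (9978351 to 9987659). Of these, the peak at 1866817 was the only one in an arm, scored 3100 and lay wholly inside a replicate 1 peak. Over all V peaks, width and score rose together, with a Spearman rho of 0.816 over 510 peaks of replicate 1 and 0.876 over 474 of replicate 2. Both come from the same caller and library, so no p is given.

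The replicates shared 328 sites on V, a site being a place where peaks of both lists overlap by at least 1 base. Of these, 219 lay in the centre, 62 in the left arm and 47 in the right arm, or 20.9, 11.9 and 8.98 per Mb. At 246 sites 1 peak of replicate 1 met 1 peak of replicate 2, at 77 sites 1 peak of replicate 1 held several of replicate 2, up to 5, and at the remaining 5 sites several replicate 1 peaks were joined. The replicate 2 peaks mostly lay inside those of replicate 1, as 337 of the 442 that met one were fully contained. Where 1 peak met 1 peak, the replicate 1 peak was the wider in 225 of 246 cases, with a median width of 4085.5 bases against 2542.5 bases in replicate 2. Its edges lay a median of 301.5 bases further out on the left and 467 bases further out on the right. The bases in peaks of both lists came to 1.26 Mb, which is 58.1% of the replicate 1 bases and 94.1% of the replicate 2 bases. As a share of the bases in either list, they made up 61.7% in the centre, 49.4% in the left arm and 37.9% in the right arm.

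Of the V peaks of replicate 1, 333 of 510 met a replicate 2 peak, which is 65.3% (95% Wilson interval 61.1 to 69.3%). Of those of replicate 2, 442 of 474 met a replicate 1 peak, which is 93.2% (90.6 to 95.2%). Such intervals hold counting error alone and take each peak as independent, which neighbours are not. On chromosomes I to IV the shares were 62.1% (60.2 to 64.0%) and 89.4% (88.2 to 90.5%). In the centre of V 76.4% (71.2 to 80.9%) of the replicate 1 peaks were met, in the left arm 52.5% (43.6 to 61.3%) and in the right arm 48.0% (38.5 to 57.7%). The interval of the centre overlaps neither of the others, but this is no test of centre against arms, since peaks are not replicates. Replicate 2 peaks were met in 94.7% (91.7 to 96.7%) of cases in the centre, 95.2% (88.3 to 98.1%) in the left arm and 83.8% (73.3 to 90.7%) in the right arm. The same limit holds for the interval of the right arm, which lies below that of the centre and overlaps that of the left arm. Of the 11 unmet replicate 2 peaks in the right arm, 5 are the neighbouring peaks of the group at the right end.

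Replicate 1 peaks of higher score were more often found again. The V peaks were divided by score into 4 groups of nearly equal size. In the lowest group of replicate 1, 20 of 127 were met, which is 15.7% (10.4 to 23.1%). In the next it was 61 of 128, or 47.7% (39.2 to 56.3%), then 125 of 127, and in the highest group 127 of 128. In replicate 2 even the lowest group was met in 97 of 118 cases, or 82.2% (74.3 to 88.1%). Above the median score, arms and centre of replicate 1 were met alike, with 178 of 180 peaks in the centre, 43 of 43 in the left arm and 31 of 32 in the right arm. Below it, 45 of 112 were met in the centre (40.2%, 31.6 to 49.4%), 19 of 75 in the left arm (25.3%, 16.9 to 36.2%) and 17 of 68 in the right (25%, 16.2 to 36.4%). For both arms together that is 36 of 143 (25.2%, 18.8 to 32.9%). Divided by width instead, the replicate 1 peaks gave a similar order. From the narrowest to the widest group, 15.7%, 61.7%, 85.8% and 97.7% were met. Whether the order belongs to score or to width was not tested.

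**Figure D5:**
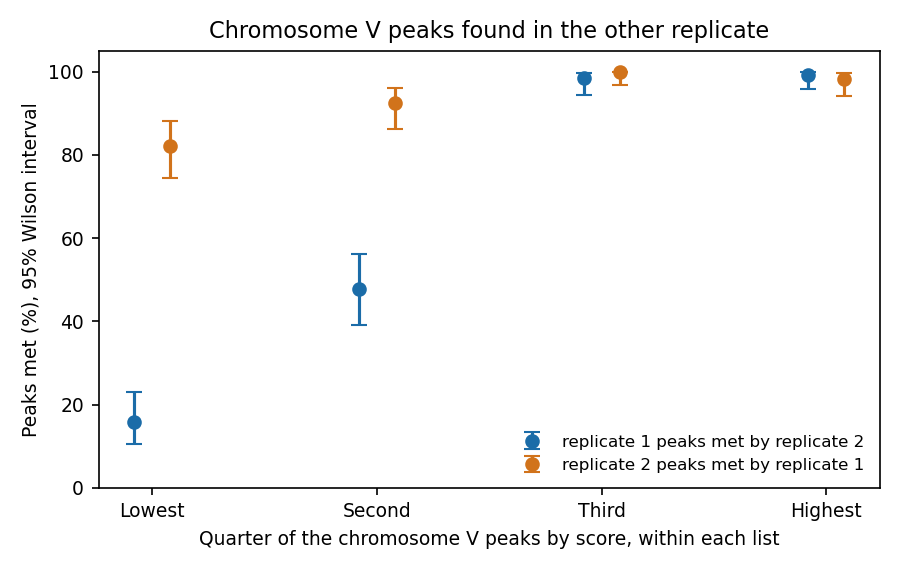
Share of chromosome V peaks that met a peak of the other replicate (%), in 4 groups by score within each list, with 95% Wilson intervals. In replicate 1 the share is 15.7% in the lowest group, 47.7% in the next and 98.4% and 99.2% in the upper groups, while in replicate 2 the lowest of the 4 shares is 82.2%.

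The peaks found in a single replicate were mostly narrow and low in score. The 177 unmet peaks of replicate 1 were 1576 bases wide at the median, with a median score of 121.24, and 98 lay within 5 kb of a replicate 2 peak. All 177 met a peak of the series list, which may not be independent of replicate 1, since any pooling behind it is not stated. The unmet peak of highest score was 9148 bases wide (5772204 to 5781351), had a score of 3100 and lay 9.51 kb from the nearest replicate 2 peak. The 32 unmet peaks of replicate 2 were 1214 bases wide at the median, and 12 were in no other list. The strongest was a 5682-base peak in the centre (9784649 to 9790330) with a score of 1975.39, which was 50.7 kb from any replicate 1 peak and met 1 series peak. These peaks were named after their values were seen.

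The series list had a peak at all 510 places of replicate 1 and at 461 of 474 places of replicate 2. It may not be independent of either replicate, since any pooling behind it is not stated. Of its 1622 V peaks, 556 met both replicates (34.3%, 95% Wilson interval 32.0 to 36.6%), 656 met replicate 1 only (40.4%), 36 met replicate 2 only (2.22%) and 374 met neither (23.1%, 21.1 to 25.2%). These shares lie near those of the 10320 series peaks of chromosomes I to IV, where 32.2% met both, 42.2% replicate 1 only, 3.49% replicate 2 only and 22.1% neither. The peaks over both were wide, with a median of 1697 bases, and accounted for 71.4% of all series peak bases on V. Those over neither were narrow, at a median of 245.5 bases, and accounted for 6.94%. In the centre 44.2% (41.0 to 47.6%) of the series peaks met both replicates, in the left arm 26.6% (22.3 to 31.3%) and in the right arm 19.3% (15.7 to 23.5%). Peaks over neither replicate made up 14.1% (11.9 to 16.5%) in the centre, 30.96% (26.4 to 35.9%) in the left arm and 35.7% (31.1 to 40.6%) in the right arm. Most of the 374 peaks over neither lay close to a replicate peak, 263 of them within 5 kb.

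The 10 highest-scoring series peaks on V that met both replicates were not spread like the coverage. Of these, 6 lay in the left arm, 2 in the right arm and 2 in the centre, although the centre held 384 of the 556 series peaks over both replicates. Their scores ran from 85.50 to 107.90, with the next peak at 84.85, so the limit of 10 does not mark a step. The first was in the right arm (19643088 to 19645799) and was 2712 bases wide. Its replicate 1 peak scored 3100 and its replicate 2 peak 2201.93. The second was a 1352-base peak in the left arm (2672876 to 2674227) with a series score of 103.13, and the third a 2036-base peak in the right arm (19117362 to 19119397) with 94.48. Over all V peaks, the median score was higher in the centre than in either arm in each list. It was 1849.03 in replicate 1, against 335.395 in the left arm and 301.905 in the right. In replicate 2 it was 489.36, against 327.08 and 250.755, and in the series list 8.50, against 6.67 and 6.32.

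In the left arm 3 of the 10 stood within 144 kb of each other, at bases 2529886 to 2532090, 2601817 to 2603319 and 2672876 to 2674227, to the left of the longest peak-free stretch of either replicate. They were 2205, 1503 and 1352 bases wide, against a median of 481 bases for V peaks of the series list, and had replicate 1 scores of 2889.31, 2782.76 and 2071.73 and replicate 2 scores of 356.92, 526.55 and 874.33. On the far side of that stretch stood the widest of the 10, 9060 bases at 3580367 to 3589426, with replicate scores of 3100 and 2778.81. The other two in the left arm were at bases 1193039 to 1197638 and 773406 to 774717. The peak at 773406 closed a 461-kb stretch without replicate 2 peaks (312021 to 773004) and had 129 kb without a peak on its other side in each replicate. In the centre they were at 13623289 to 13628937 and 15392640 to 15395146, the second of which bordered on the free stretch that ends at base 15391658 and on a further one of 112 kb in replicate 1 and 113 kb in replicate 2. A gap of at least 100 kb on the same side in both replicates was found at 2 of the 10. Counted in each list alone and on either side, it was 2 of the 10 in replicate 1 and 3 of the 10 in replicate 2, and among all V peaks 17.6% in replicate 1 and 17.7% in replicate 2.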

How the data were processed

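ChIP-seq was done on 2 MRG-1 ChIP samples, with 2 input samples. The tool BWA and the build ce10 are named, without a version, per the submitters' processing notes. Peak positions are in WormBase WS220, per the file headers, and each line names MACS (replicate lists) or MACS v2 (series list). The score is the authors' deposited value per peak, with no scale given. Cutoff, control and any pooling behind the series list: not given in the sources used here.

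Samples were grouped by title. The span of a chromosome was the highest peak end in any list. Peaks, gaps and peak-free stretches were assigned to centre and arms by midpoint, bases in peaks by position. Values were computed per list, with mean and SD over 2 replicates, and shares with 95% Wilson intervals. Alternatives changed the overlap, centre, tip, cluster gap, score limit, measure and list. The functions were tested on simulated peak lists. Computation used scipy 1.17.1, pandas 2.3.3 and numpy 2.4.6 under Python 3.11.15, and plots matplotlib 3.10.9.

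The regions named were the 10 highest-scoring series peaks over both replicates, the 5 widest peaks and 5 longest clusters of each replicate list, the 5 longest free stretches of each list and of all 3 (those of the series list at the same places, with slightly other ends), all replicate peaks of the first 200 kb, and others said to be chosen later. Members and rules were chosen with earlier results of these data known. The only gene table used here follows assembly WBcel235 rather than WS220, so genes and sequence at the peaks were not analysed here.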

Additional observations from a re-analysis of the deposited data

How the results depend on the processing

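Over 15 results and 67 alternatives, 39 values stayed within the replicate spread or interval of the result or, for counts, within 1.5 times, 25 moved and 3 turned round, all of these for the tip of 100 kb in place of 200 kb. That ratio was 3.29 at 200 kb, 0.603 at 100 kb (0.645 without replicate 1, 0.561 without replicate 2, both added after seeing the data) and 1.64 at 500 kb, because each replicate has a single peak in the first 100 kb. Leaving out a replicate gave 6.42% to 10.4% for coverage, 22.7 to 24.4 peaks per Mb, 2.16 to 2.74 for centre over arms, 1.22 to 1.43 for left over right arm, 2.63 to 3.95 for the tip, 682 to 881 kb for the longest free stretch, 16242 to 18424 bases for the gap, 2199 to 3202.5 bases for the width, 100 to 103 clusters and 0.488 to 0.499 for V over the other autosomes. Except for clusters, these values without a replicate could not count as moved. Each of 2 values always lies within their SD of the mean, so that they stayed says nothing about robustness. In the series list there were 77.5 peaks per Mb, a ratio of V to the others of 0.472, a left-to-right ratio of 1.08, a longest free stretch of 369 kb, a median gap of 555 bases, a median width of 481 bases and 274 clusters. The better-scoring 50% of each list gave 13.3 peaks per Mb, 0.517 for V over the others, 2.95 for centre over arms, a gap of 39543 bases, a width of 4238.5 bases, 28.5 clusters on average, 76.01% of replicate 1 peaks met, and 37.3% and 28.8% of series peaks over both and neither replicate. A centre of 33.3% of the span gave 1.90 for centre over arms and 1.13 for left over right, and peaks per Mb gave 1.74 for centre over arms. With 50% of both peaks required, 45.1% of replicate 1 and 48.5% of replicate 2 peaks were met, and 12.6% and 74.8% of series peaks lay over both and neither replicate. With the midpoint rule 31.8% lay over both. Clusters numbered 88.5 on average with gaps of at most 2 kb and 118.5 with 10 kb, and shared sites 228 with 50% of both peaks and 224 in the better-scoring 50%, against 328. No paired analysis was possible because input values were not analysed here and no test compares groups. Read depth is unknown, and with 2 samples no sample was tested as an outlier.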

Other observations

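One block of strong series peaks in the centre of V met neither replicate list. It ran from base 9333336 to 9346967 and held 4 series peaks that covered 13.1 of its 13.6 kb. The last of them (9344683 to 9346967) had a score of 84.69, at percentile 99.4 of the series list and next to the 10 highest named above, which stop at 85.50. Its neighbours (9337768 to 9344326 and 9333852 to 9337683) scored 36.80 and 33.93. The stretch without a called peak that holds the block was 54.3 kb long in replicate 1 and 50.6 kb in replicate 2. The block stood near its left edge, where a replicate 1 peak ended at base 9328235 and a replicate 2 peak at 9332563. The next highest series peak of V over neither replicate scored 20.93, and 3 of the 374 such peaks scored above 25. No explanation was tested for this block.

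A second block over neither replicate (10605763 to 10612212) was weaker, with 4 series peaks of 6.04 kb and a top score of 13.61. It stood in 54.7 kb without a replicate 1 peak and 56.9 kb without a replicate 2 peak. This block too stood near the left edge, where a replicate 1 peak ended at base 10603157 and a replicate 2 peak at 10601003.

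Replicate 2, which covered less of V in nearly every window, was the higher of the 2 in 4 full windows of 200 kb. A pair of them adjoin in the left arm, from base 2200001 to 2600000, with 4.28% and 7.69% in replicate 2, against 2.73% and 4.89% in replicate 1. The cause of this difference was not tested.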
